A study of Triticum aestivum with 12 samples.

Results

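Granule-bound starch synthase I (GBSSI) is encoded in bread wheat by 3 homeologous genes, the waxy loci on chromosomes 7A, 4A and 7D. They were followed here by their identifiers, TraesCS7A02G070100 (GBSSI-7A), TraesCS4A02G418200 (GBSSI-4A) and TraesCS7D02G064300 (GBSSI-7D), which are 3 of the 120744 features of the count table. The table carries identifiers and positions and no gene names. All 3 genes passed the filter on low counts, which left 65080 genes for testing.

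RNA was sequenced from whole developing grains of the hard red winter wheat cultivars TAM112 and TAM111 at 14 and 5 days after flowering (DAF, written DAP in the labels). There were 3 libraries each of TAM112 at 14 DAF, TAM111 at 14 DAF, TAM112 at 5 DAF and TAM111 at 5 DAF, 12 in all. The labels place all plants at 1 field site in 1 year and name no added treatment, and the grains pooled for a library were taken from a single inflorescence. The p-values measure the spread between such samples, and in RNA of whole grains fewer endosperm cells and less RNA per cell cannot be told apart.

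GBSSI sits inside the starch granule, where it elongates the linear chains of amylose, while soluble starch synthases and branching enzymes build amylopectin. Grain that lacks active GBSSI from all homeologs has waxy starch, which is nearly free of amylose, and the loss of single homeologs lowers amylose content in part. The copy on 4A is the B-genome gene, which moved there with a segment of chromosome arm 7BS, and GBSSI is the endosperm form, whereas other tissues of the wheat plant rely mainly on another isoform.

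The 3 gene models had the same build. In the IWGSC RefSeq v1.0 assembly of Chinese Spring, GBSSI-7A lay on 7A from 35765406 to 35769104 on the plus strand, with a summed exon length of 2053 bases. GBSSI-7D lay on 7D from 35595505 to 35599537 on the plus strand (2205 bases). GBSSI-4A lay on 4A from 688097145 to 688100962 on the minus strand (2363 bases). Each model had 12 exons, and exons 3 to 11 had the same length in all 3 genes, 1377 bases in sum. The models differed at their ends. Exon 1 was 140 bases in GBSSI-7A, 210 in GBSSI-4A and 56 in GBSSI-7D, and exon 12 was 193, 414 and 429 bases in the same order. Exon 2 was 362 bases in GBSSI-4A and 343 bases in both others. The number of other annotated features that overlapped any of the 3 genes was 0. How reads that matched more than 1 homeolog were counted is not stated, so part of the signal of such similar genes may have been dropped or split between copies, and the wheat cultivars were read against the alleles of Chinese Spring.

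**Figure D1:**
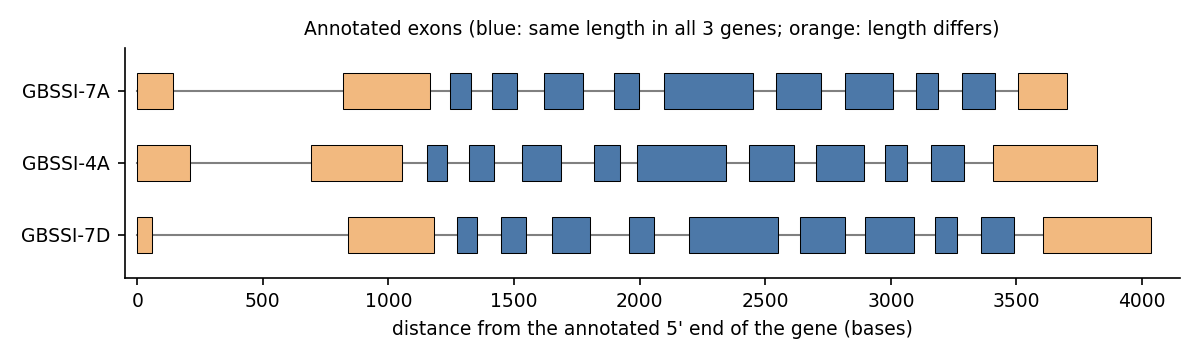
Exon models of the 3 GBSSI homeologs, each drawn from its annotated 5′ end, with the distance in bases on the horizontal axis. Boxes are exons and lines are introns. The 9 blue exons (3 to 11) have the same length in all 3 genes, and the orange exons 1, 2 and 12 do not have a common length.

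The map of the exons shows where the homeologs differ in length. Levels of 1 gene are given below as CPM (counts per unit of library size, set to a common total), scaled to library size with TMM factors, and levels of different homeologs are set against each other only as TPM. TPM takes gene length into account and carries no TMM factor here. A gene was called a differentially expressed gene (DEG) where the absolute log2 fold change was over 1 and the adjusted p-value under 0.01 by the quasi-likelihood test of edgeR, where p-values were adjusted after Benjamini and Hochberg over the 65080 tested genes. Shares of all tested genes come from the edgeR fit of all 12 libraries. They were not counted for DESeq2, other scalings or filters, or fits without 1 library.

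The cultivars differed in GBSSI at mid-grain filling. GBSSI-7A had 34.4, 45.0 and 131 CPM in TAM112 at 14 DAF, against 417, 539.6 and 287 CPM in TAM111 at 14 DAF. GBSSI-4A had 61.5, 83.6 and 229 CPM in TAM112, against 786, 1051 and 636 CPM in TAM111. GBSSI-7D had 46.4, 58.1 and 180.0 CPM in TAM112, against 540.0, 723 and 443 CPM in TAM111. For each homeolog, every TAM112 library was below every TAM111 library, and replicate 3 of TAM112 was the highest of its group for all 3 genes. How many of all tested genes separated in this way was not counted, while 46.3% had an unadjusted p under 0.05 in edgeR.

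All 3 homeologs were DEGs at 14 DAF and were lower in TAM112. Over all tested genes, 14.5% were DEGs in this comparison, 7.45% were lower in TAM112, and 22.2% met the same fold limit with an adjusted p under 0.05. GBSSI-7A averaged 70.1 ± 53.0 CPM in TAM112 and 415 ± 126 CPM in TAM111 (SD, n = 3 each), a log2 fold change of -2.56 ± 0.50 (SE, adjusted p = 0.00252 in edgeR), or 5.91-fold lower. GBSSI-4A averaged 125 ± 91.1 CPM in TAM112 and 824 ± 210.4 CPM in TAM111, a log2 fold change of -2.72 ± 0.49 (adjusted p = 0.00171 in edgeR), or 6.61-fold lower. GBSSI-7D averaged 94.8 ± 74.0 CPM in TAM112 and 569 ± 142 CPM in TAM111, a log2 fold change of -2.58 ± 0.46 (adjusted p = 0.00150 in edgeR), or 6.0-fold lower. The 3 estimates lay within 1 SE of each other, and the differences between them were not tested. The median log2 fold change over all tested genes was -0.01.

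Replicate 3 of TAM112 made the mean difference smaller. Without it, the log2 fold changes at 14 DAF were -3.39, -3.51 and -3.45 for GBSSI-7A, GBSSI-4A and GBSSI-7D, and all 3 were still DEGs. The adjusted p of GBSSI-7A was 0.0113 without replicate 1 of TAM112 (log2 fold change -2.23), 0.0148 without replicate 2 of TAM112 (-2.32) and 0.0118 without replicate 2 of TAM111 (-2.32), and that of GBSSI-4A was 0.0108 without replicate 2 of TAM112 (-2.50), in edgeR. GBSSI-7D stayed a DEG whichever library was left out. Replicate 3 of TAM112 at 14 DAF also stood apart across the count table. The chi-square per degree of freedom between the counts of 2 libraries was 47.7 and 48.9 for its pairs. It was 13.6 between replicates 1 and 2. Pairs with replicate 3 of TAM112 at 5 DAF had 43.6 and 45.1.

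**Figure D2:**
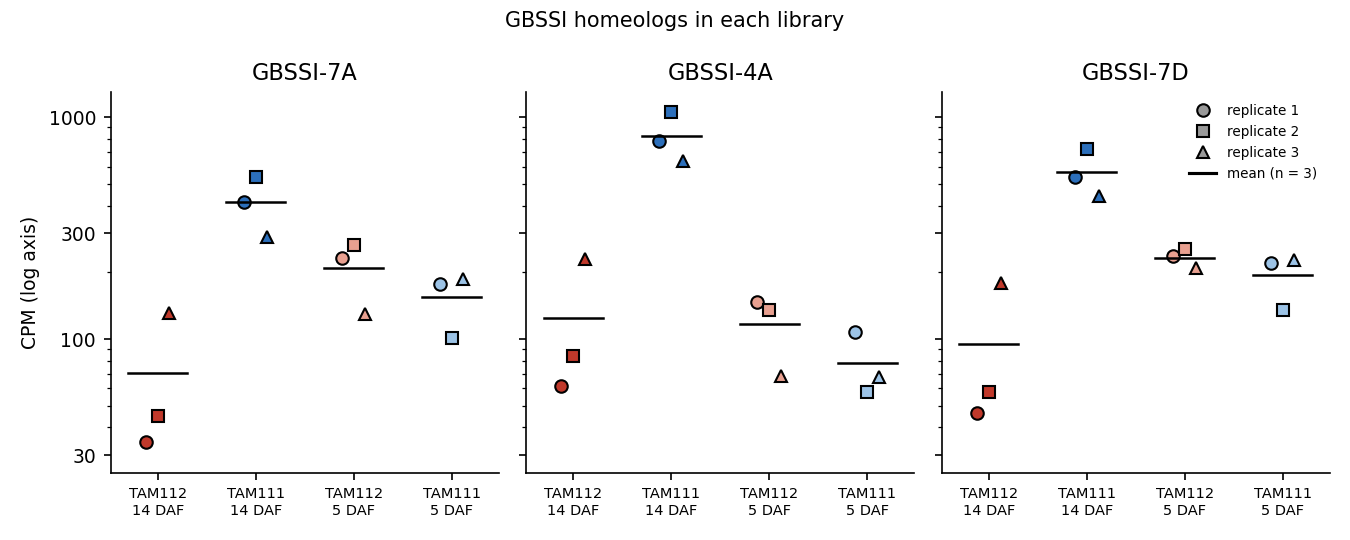
GBSSI-7A, GBSSI-4A and GBSSI-7D in each library, in CPM on a log axis. Each point is 1 library, its shape gives the replicate number, and the line is the mean of 3 libraries. For each gene the 3 TAM111 libraries of 14 DAF sit above all others (287 to 539.6, 636 to 1051 and 443 to 723 CPM), and the TAM112 libraries of 14 DAF spread from 34.4 to 131, 61.5 to 229 and 46.4 to 180.0 CPM.

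The plot of levels by library also shows the early stage, where the cultivars overlapped. GBSSI-7A had 231, 267 and 129 CPM in TAM112 at 5 DAF, against 178, 101 and 187 CPM in TAM111 at 5 DAF. GBSSI-4A had 146, 136 and 68.2 CPM in TAM112, against 108, 58.1 and 67.4 CPM in TAM111. GBSSI-7D had 237, 255 and 209 CPM in TAM112, against 220.3, 135 and 227 CPM in TAM111. Replicate 3 of TAM112 was the lowest of its group for every homeolog, and replicate 2 of TAM111 was the lowest of its own.

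At 5 DAF 0 of the 3 homeologs were DEGs in edgeR, where 3.39% of all tested genes were DEGs and 5.94% met the same fold limit with an adjusted p under 0.05. By an unadjusted p under 0.05 in edgeR the number was also 0, beside 26.8% of all tested genes. DESeq2's Wald test called 0 as well, and its share over all genes was not counted. The log2 fold change of TAM112 over TAM111 was 0.43 ± 0.47 for GBSSI-7A (SE, adjusted p = 0.593), 0.58 ± 0.46 for GBSSI-4A (adjusted p = 0.446) and 0.27 ± 0.43 for GBSSI-7D (adjusted p = 0.728), all in edgeR without a replicate block. All 3 estimates were positive and close to their own standard errors, so a moderate difference in either direction was not detectable with 3 libraries per group.

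The order of the 4 groups was led by TAM111 at 14 DAF for all 3 homeologs, and its libraries did not overlap those of the next group. How often such a gap occurs over all tested genes was not counted. Below it the order depended on the homeolog. For GBSSI-7A and GBSSI-7D, TAM112 at 5 DAF was second (209 ± 71.5 and 233 ± 23.2 CPM), then TAM111 at 5 DAF (156 ± 47.2 and 194 ± 51.3 CPM) and TAM112 at 14 DAF last. For GBSSI-4A, TAM112 at 14 DAF was second, then TAM112 at 5 DAF (117 ± 42.4 CPM) and TAM111 at 5 DAF last (77.9 ± 26.6 CPM). Among these lower 3 groups each overlapped its neighbour in the order. Among all features ranked by TPM, where rank 1 is the most abundant, GBSSI-4A stood at rank 238 to 463 in TAM111 at 14 DAF and at rank 1058 to 4456 in TAM112 at 14 DAF.

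In TAM111 the homeologs differed in how far their level at 14 DAF exceeded that at 5 DAF. GBSSI-4A rose 10.6-fold, with a log2 fold change of 3.40 ± 0.51 for 14 over 5 DAF (SE, adjusted p = 0.000266 in edgeR). The estimates were 1.41 ± 0.48 for GBSSI-7A (2.66-fold, adjusted p = 0.0297) and 1.55 ± 0.44 for GBSSI-7D (2.93-fold, adjusted p = 0.0129), which missed the adjusted p of 0.01 in edgeR. Thus 1 of 3 homeologs was a DEG, where 24% of all tested genes were DEGs and 13.4% were higher at 14 DAF. For each of the 3 genes the lowest library of 14 DAF was above the highest library of 5 DAF. The share of all tested genes without overlap was not counted, and 53.1% had an unadjusted p under 0.05 in edgeR. GBSSI-7A and GBSSI-7D were near the threshold, and DESeq2's Wald test called both (adjusted p = 0.00441 and 0.000617). The share of all genes that DESeq2 called was not counted. With the limit of the adjusted p at 0.05 and the same fold limit, which 31% of all tested genes met in edgeR, all 3 homeologs passed.

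In TAM112 no homeolog was higher at 14 DAF by the same test. GBSSI-7A had a log2 fold change of -1.58 ± 0.48 for 14 over 5 DAF (SE, adjusted p = 0.0198 in edgeR) and GBSSI-7D of -1.30 ± 0.44 (adjusted p = 0.0310), while GBSSI-4A stood at 0.10 ± 0.46 (adjusted p = 0.888). The libraries of GBSSI-7D did not overlap between the stages (46.4 to 180.0 CPM at 14 DAF, against 209 to 255 CPM at 5 DAF), those of GBSSI-7A overlapped in replicate 3 of each stage (131 CPM at 14 DAF, against 129 CPM at 5 DAF), and those of GBSSI-4A overlapped throughout. The share of all tested genes whose libraries did not overlap was not counted. The number of DEGs was 0 of 3, where 21% of all tested genes were DEGs and 9.27% were lower at 14 DAF. The unadjusted p was 0.00655 for GBSSI-7A, 0.839 for GBSSI-4A and 0.0117 for GBSSI-7D in edgeR, and DESeq2's Wald test called GBSSI-7A and GBSSI-7D lower (adjusted p = 0.00201 and 0.00659). Here too the share of all genes that DESeq2 called was not counted. With the limit of the adjusted p at 0.05 and the same fold limit, which 28.4% of all tested genes met in edgeR, both also passed. The result turned on replicate 3 of TAM112 at 14 DAF. Without it, GBSSI-7A (-2.43, adjusted p = 0.000916) and GBSSI-7D (-2.19, adjusted p = 0.000296) were DEGs in edgeR and GBSSI-4A had a log2 fold change of -0.72 (adjusted p = 0.151).

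The interaction term asks whether the stage change differed between the cultivars. The stage change of TAM112 minus that of TAM111 was -2.99 ± 0.68 for GBSSI-7A (SE, adjusted p = 0.0320), -3.31 ± 0.67 for GBSSI-4A (adjusted p = 0.0219) and -2.85 ± 0.62 for GBSSI-7D (adjusted p = 0.0281) on the log2 scale, in edgeR. None of the 3 passed the adjusted p of 0.01, which 0.309% of all tested genes did with a log2 value over 1 in size, 0.141% in the negative direction. At an adjusted p under 0.05 with the same fold limit, which 4.59% of all tested genes met, all 3 passed, and all 3 passed at an unadjusted p under 0.05, as did 23.3% of all tested genes. DESeq2's Wald test called all 3 (adjusted p = 0.000177, 1.53e-05 and 9.98e-05). Without replicate 3 of TAM112 at 14 DAF the edgeR test also called all 3, at -3.82, -4.10 and -3.72 (adjusted p = 0.00372, 0.00277 and 0.00136). The share of all genes called was counted neither for DESeq2 nor for the fit without that library. The share of 0.309% is therefore not their background.

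**Figure D3:**
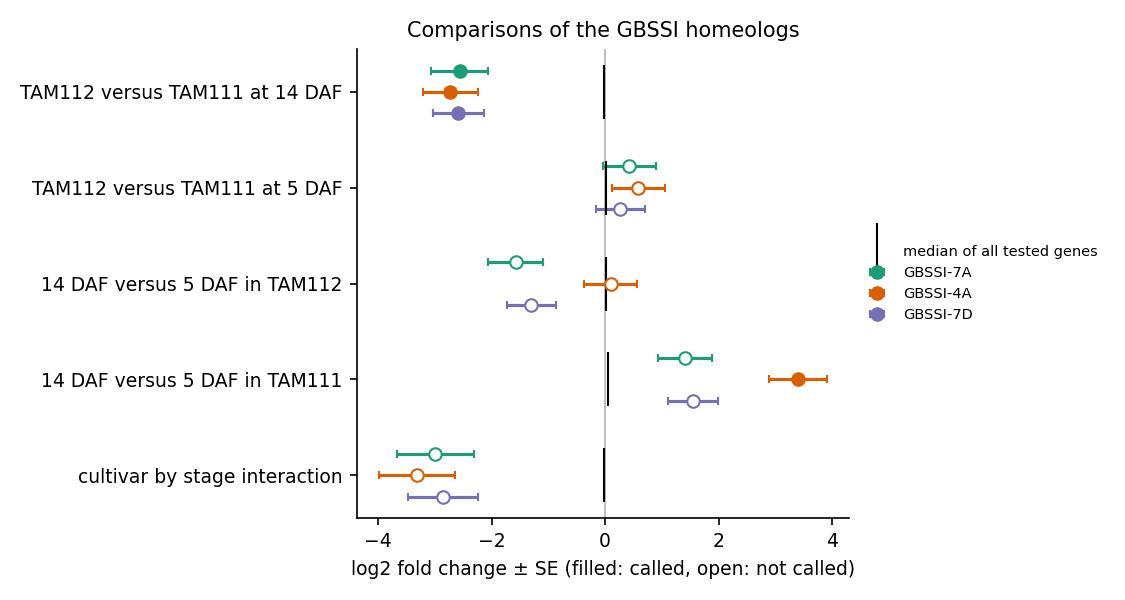
Log2 fold changes of the 3 homeologs in each comparison, with bars of 1 SE. Filled points are DEGs, open points are not, and the short black line is the median of all tested genes. The filled points are the 3 homeologs at 14 DAF between cultivars (-2.56, -2.72 and -2.58) and GBSSI-4A between stages in TAM111 (3.40).

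The plot of fold changes places GBSSI-4A apart from the other homeologs in both stage comparisons and next to them in both cultivar comparisons. This was followed with the share of each homeolog in the summed TPM of the 3 genes. The summed TPM was 104, 126 and 352 in TAM112 at 14 DAF, against 744, 889.8 and 583 in TAM111 at 14 DAF. It was 469, 402 and 269.6 in TAM112 at 5 DAF, against 307, 145 and 252 in TAM111 at 5 DAF. These sums carry no TMM factor, so their differences between groups are not those of CPM. At 14 DAF the summed level averaged 194 TPM in TAM112 and 739 TPM in TAM111, but 290 and 1808 CPM. At 5 DAF it averaged 380 TPM in TAM112 and 234 TPM in TAM111, but 559 and 427 CPM.

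The share of GBSSI-4A was higher at 14 DAF than at 5 DAF in both cultivars. GBSSI-4A made up 40.8%, 42.3% and 40.0% of GBSSI TPM in TAM112 at 14 DAF and 42.6%, 43.0% and 44.1% in TAM111 at 14 DAF. At 5 DAF it made up 22.0%, 18.9% and 15.5% in TAM112 and 19.7%, 18.2% and 12.8% in TAM111. Every library of 14 DAF was above every library of 5 DAF. Pooled over cultivars the share was 42.1% ± 1.50 at 14 DAF and 17.8% ± 3.25 at 5 DAF (SD, n = 6 each), a difference of 24.3 points (p = 0.00216 in a two-sided exact permutation test, which is the lowest value possible for 6 against 6 libraries, or 0.00433 adjusted over the 6 share tests). Like the other pooled share tests, this one took the libraries as separate units. It used neither the cultivar nor the pairing by replicate number at 5 DAF that is described below. Within the cultivars the difference was 22.2 points in TAM112 and 26.3 points in TAM111, each without overlap, where the smallest exact p of 3 against 3 is 0.1.

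GBSSI-7A and GBSSI-7D both held smaller shares at 14 DAF. GBSSI-7A made up 25.5% ± 1.30 at 14 DAF and 38.6% ± 3.34 at 5 DAF (SD, n = 6 each), a difference of -13.1 points, and GBSSI-7D made up 32.4% ± 0.968 at 14 DAF and 43.6% ± 4.92 at 5 DAF, a difference of -11.2 points. Both had the same smallest exact permutation p of 0.00216 (adjusted 0.00433). The 3 shares sum to 100% in each library, so these tests are not independent of that of GBSSI-4A. The largest homeolog was GBSSI-4A in all 6 libraries of 14 DAF.

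Between the cultivars the shares were compared over both stages and within each. Over the 6 libraries of each cultivar, TAM112 minus TAM111 was 1.03 points for GBSSI-7A (exact permutation p = 0.797), -0.15 points for GBSSI-4A (p = 0.970) and -0.87 points for GBSSI-7D (p = 0.831), all with an adjusted p of 0.970. The spread in this pooled test holds the difference between the stages, so it cannot show a small difference between the cultivars. At 14 DAF, where the summed level differed most, GBSSI-4A made up 41.0% ± 1.17 in TAM112 and 43.2% ± 0.781 in TAM111 (SD, n = 3 each), a difference of -2.20 points without overlap (exact p = 0.1, the smallest possible). GBSSI-7A made up 26.3% ± 0.0679 in TAM112 and 24.8% ± 1.62 in TAM111 at that stage, a difference of 1.47 points, also without overlap (exact p = 0.1). GBSSI-7D made up 32.7% ± 1.11 in TAM112 and 32.0% ± 0.841 in TAM111, which overlapped. At 5 DAF the differences were 0.59 points for GBSSI-7A, 1.89 points for GBSSI-4A and -2.48 points for GBSSI-7D, all with overlap, so for GBSSI-4A the stages differed in sign. Taken by replicate number at 5 DAF, the share of GBSSI-4A was higher in TAM112 each time. Those of GBSSI-7A and GBSSI-7D were mixed, and no paired test was run. Within TAM112 at 14 DAF the shares varied less than the level did. Replicate 3 had a summed level of 352 TPM against 104 and 126 TPM in replicates 1 and 2, yet GBSSI-7A made up 26.2%, 26.2% and 26.3% of it in replicates 1, 2 and 3.

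**Figure D4:**
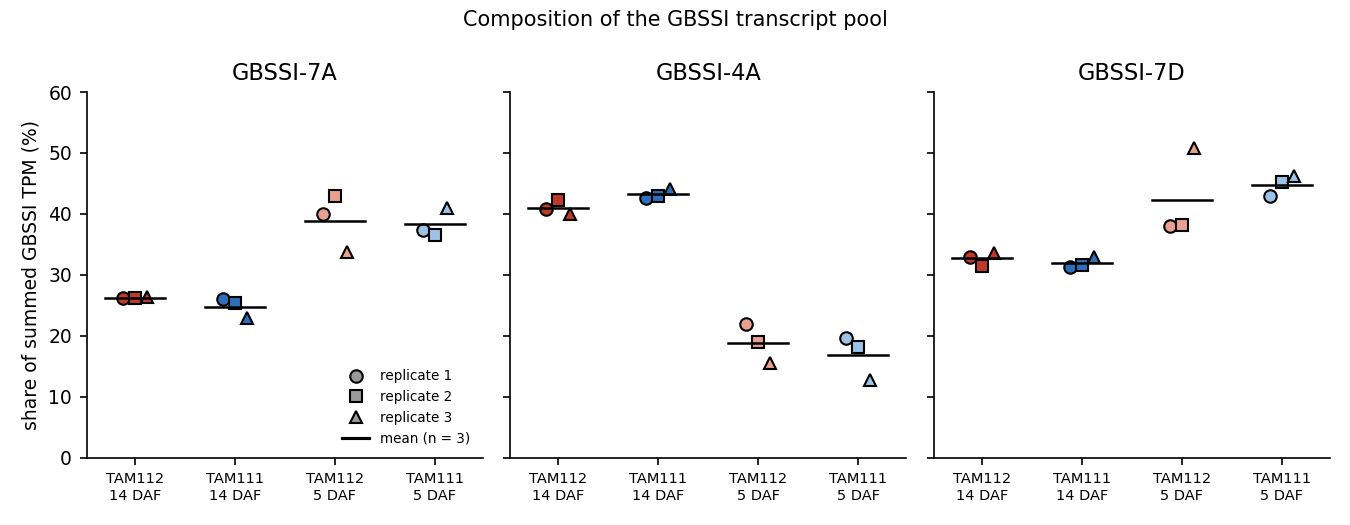
Share of each homeolog in the summed GBSSI TPM of each library, in percent. Each point is 1 library, its shape gives the replicate number, and the line is the mean of 3 libraries. GBSSI-4A lies at 40.0% to 44.1% in the 6 libraries of 14 DAF and at 12.8% to 22.0% in the 6 of 5 DAF, while GBSSI-7A and GBSSI-7D lie lower at 14 DAF.

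The plot of shares can be read pair by pair within libraries. The ratio of GBSSI-4A to GBSSI-7A in TPM averaged 0.64 and 0.80 on the log2 scale in TAM112 and TAM111 at 14 DAF, against -1.06 and -1.20 in TAM112 and TAM111 at 5 DAF. It was above 0 in all 6 libraries of 14 DAF and below 0 in all 6 of 5 DAF, so its mean over the 12 libraries was -0.20 ± 0.99 (SD, exact sign-flip permutation p = 0.485). The ratio of GBSSI-4A to GBSSI-7D changed sign in the same way and averaged -0.46 ± 0.92 (exact p = 0.112, adjusted over 3 pairs 0.168).

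GBSSI-7A was below GBSSI-7D in 10 of the 12 libraries, with a mean log2 ratio of -0.26 ± 0.21 (SD, exact sign-flip permutation p = 0.00342, adjusted over 3 pairs 0.0103). The exceptions were replicates 1 and 2 of TAM112 at 5 DAF, while replicate 3 of that group had the lowest ratio of all libraries (-0.59) and the highest share of GBSSI-7D (50.8%). Across the 12 libraries, which differ in cultivar, stage and depth, log2 CPM of GBSSI-7A and GBSSI-7D had a Pearson correlation of 0.984, GBSSI-4A and GBSSI-7D of 0.794, and GBSSI-7A and GBSSI-4A of 0.757. After the group means were taken out the correlations were 0.946, 0.882 and 0.938, so the libraries of a group moved together for all 3 homeologs.

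Genes whose log2 CPM followed the homeologs most closely over the 12 libraries were named by their Pearson correlation, as a description of libraries that share cultivar and stage. They were TraesCS1A02G419600 (r = 0.988), TraesCS2B02G341200 (0.984) and TraesCS2D02G321900 (0.979) for GBSSI-7A, and TraesCS1D02G427400 (0.984), TraesCS1A02G419600 (0.981) and TraesCS2D02G321900 (0.981) for GBSSI-7D. For GBSSI-4A they were TraesCS5A02G490200 (0.993), TraesCS7D02G284900 (0.987) and TraesCS6D02G159200 (0.987), of which the last averaged only 1.99 CPM. The homeologs on 7A and 7D shared TraesCS1A02G419600 and TraesCS2D02G321900, and GBSSI-4A shared none with them. The tables used here give these identifiers no gene name.

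The closest genes were chosen for the pattern of the homeologs, so their levels only describe it. TraesCS1A02G419600 averaged 57.2 ± 57.8 CPM in TAM112 and 424 ± 148 CPM in TAM111 at 14 DAF, and 199.8 ± 64.0 CPM in TAM112 and 131 ± 37.6 CPM in TAM111 at 5 DAF (SD, n = 3 each). TraesCS5A02G490200 averaged 20.3 ± 13.2 CPM in TAM112 and 132 ± 38.9 CPM in TAM111 at 14 DAF, and 25.1 ± 8.26 CPM in TAM112 and 13.7 ± 3.32 CPM in TAM111 at 5 DAF. Like GBSSI-4A and unlike GBSSI-7A, this gene was lowest in TAM111 at 5 DAF.

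Transcription factors that the study tabled for a gene group with starch metabolism terms, expressed higher in TAM111, were read beside the homeologs. The study ranked factors by how many more network links to that analysis they had in TAM111 than in TAM112, and these were its top 10. The paper names 3 of them as homeologs of each other, so the 10 are not separate cases. The study chose these 10 genes in part on these libraries, so they are not independent evidence of a direction. Between the cultivars, 0 of the 10 were DEGs at 14 DAF or at 5 DAF by the edgeR rule used here, beside 14.5% and 3.39% of all tested genes. The study's own calls of these factors came from another test and are not given here. At 14 DAF 9 of 10 had a negative log2 fold change of TAM112 over TAM111 (median -3.01, against -2.72 to -2.56 for the GBSSI homeologs and -0.01 over all tested genes), with standard errors of 0.95 to 1.44 and adjusted p of 0.0201 to 0.615 in edgeR. At 14 DAF 8 of the 10 had an unadjusted p under 0.05, as did 46.3% of all tested genes, and at 5 DAF 0, beside 26.8% of all tested genes, and DESeq2's Wald test called 0 at either stage. Without replicate 3 of TAM112 at 5 DAF the count at 14 DAF was 2, and without replicate 3 of TAM111 at 5 DAF it was 1.

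Between stages in TAM111, 2 of the 10 factors were DEGs and both rose, beside 24% of all tested genes that were DEGs and 13.4% that were higher at 14 DAF. The NAC factor TraesCS7A02G194700 averaged 94.5 ± 9.77 CPM at 14 DAF and 1.33 ± 1.13 CPM at 5 DAF (SD, n = 3 each), a log2 fold change of 6.16 ± 1.19 (SE, adjusted p = 0.00140 in edgeR). The MYB-related factor TraesCS2D02G234000 averaged 13.0 ± 1.27 CPM at 14 DAF and 0.553 ± 0.480 CPM at 5 DAF, a log2 fold change of 4.56 ± 1.04 (adjusted p = 0.00383 in edgeR). In TAM112 the number was 0 of 10, with a median log2 fold change of -0.23 against 3.77 in TAM111, and 1 of the 10 had an unadjusted p under 0.05, beside 51.2% of all tested genes, while DESeq2 called 0. The count of 2 in TAM111 was 1 without replicate 2 or 3 of TAM111 at 14 DAF or replicate 1 or 2 of TAM111 at 5 DAF, 5 without replicate 3 of TAM112 at 5 DAF, and 0 where at least 10 counts were asked of every library.

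Genes beside the homeologs on the chromosome were mixed in direction. Of the 60 nearest tested genes, 10 on each side of each homeolog, 7 were DEGs between the cultivars at 14 DAF, 2 of them higher and 5 lower in TAM112, beside 14.5% of all tested genes, 7.02% higher and 7.45% lower. Their median log2 fold change was 0.31 beside GBSSI-7A, -0.23 beside GBSSI-4A and 0.17 beside GBSSI-7D. The values ran from -2.96 to 1.84 on 7A, -3.00 to 0.80 on 4A and -3.44 to 1.81 on 7D. Each homeolog thus had a neighbour with a lower log2 fold change than its own. The DEGs numbered 4 beside GBSSI-7A, 3 beside GBSSI-4A, all lower in TAM112, and 0 beside GBSSI-7D. The 20 neighbours of a homeolog spanned 4.24 Mb on 7A, 5.39 Mb on 4A and 4.20 Mb on 7D. The count of 7 fell to 1 without replicate 1 of TAM112 at 14 DAF, to 0 without its replicate 2, and to 2, 1 and 3 without replicates 1, 2 and 3 of TAM111 at 14 DAF. With library sizes alone the split was 9 higher and 2 lower.

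**Figure D5:**
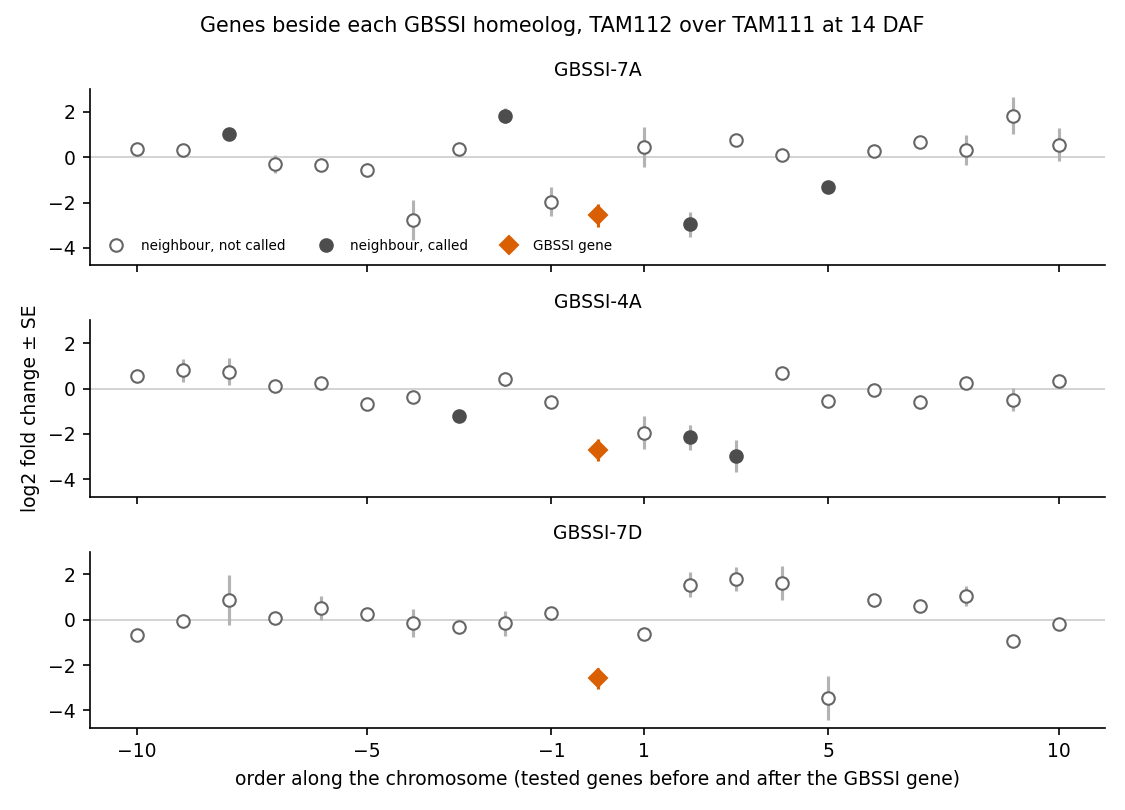
Log2 fold change of TAM112 over TAM111 at 14 DAF, with bars of 1 SE, for each GBSSI homeolog (diamond) and the 10 tested genes on each side of it in chromosome order. Filled circles are DEGs. The 3 homeologs lie at -2.56, -2.72 and -2.58, while the neighbours scatter on both sides of 0 with medians of 0.31 (7A), -0.23 (4A) and 0.17 (7D). The lowest neighbour lies below the homeolog in each panel, at -2.96 (7A), -3.00 (4A) and -3.44 (7D).

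In the plot of neighbours the genes next to GBSSI-7A and GBSSI-7D had log2 fold changes of both signs, and both genes next to GBSSI-4A had negative ones. On 7D, TraesCS7D02G063900 and TraesCS7D02G064400 flanked GBSSI-7D with log2 fold changes of 0.28 ± 0.19 and -0.61 ± 0.18 (SE, adjusted p = 0.274 and 0.0188 in edgeR). On 4A, TraesCS4A02G418100 and TraesCS4A02G419000 flanked GBSSI-4A with -0.58 ± 0.16 and -1.94 ± 0.72 (adjusted p = 0.0160 and 0.0534). Of these, TraesCS4A02G419000 averaged under 1 CPM in every group. On 7A, TraesCS7A02G069700 and TraesCS7A02G070800 flanked GBSSI-7A with -1.97 ± 0.64 and 0.45 ± 0.88 (adjusted p = 0.0315 and 0.720), and both averaged under 1 CPM in every group.

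At 5 DAF 2 of the 60 neighbours were DEGs, where 3.39% of all tested genes were (1.93% lower in TAM112). Both were lower in TAM112 and were the 2 nearest tested genes on the same side of GBSSI-4A. Their annotated spans overlapped each other on opposite strands. The strand option of the counting is not given, so the 2 calls may not be separate cases. TraesCS4A02G419000 averaged 0.00770 CPM in TAM112 and 0.521 ± 0.341 CPM in TAM111, and TraesCS4A02G419100 averaged 0.0236 ± 0.0231 CPM in TAM112 and 0.425 ± 0.0749 CPM in TAM111 (SD, n = 3 each). A single count was worth 0.0231 to 0.0362 CPM, so the TAM112 means of both genes stood for about 1 count per library or less, and both calls rest on few reads. The count of 2 was 0 without replicate 1 or 2 of TAM112 or replicate 2 or 3 of TAM111 at 5 DAF, and 1 without replicate 3 of TAM112 or replicate 1 of TAM111 at 5 DAF or, through the shared fit, without any replicate of TAM112 or replicate 1 of TAM111 at 14 DAF. GBSSI-4A itself had 1961 or more counts in every library.

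The homeologs were covered by many counts. The libraries held 31916077 to 40464882 counts, and a GBSSI homeolog had 1455 to 29004 counts per library. The TMM factors ran from 0.767 to 1.19. With library sizes alone, all 3 homeologs were still DEGs at 14 DAF between cultivars, at -2.09 for GBSSI-7A, -2.25 for GBSSI-4A and -2.11 for GBSSI-7D, while the median log2 fold change of all genes was 0.45 in place of -0.01. Markers of endosperm, pericarp and embryo were not read here, since the identifiers could not be matched to product names, so whether the tissue make-up of the grains differed between the groups was not tested.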

How the data were processed

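Counts of 12 libraries were analysed, 3 per cultivar and stage, grouped by their labels. The authors deposited raw counts per gene, with gene positions and lengths, made by trimming (Cutadapt, Trimmomatic), alignment by HISAT2 against the RefSeq assembly v1.0 of IWGSC, and featureCounts on annotation v1.1. Strand and multi-mapping options are not given in the sources used here.

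Counts were filtered with filterByExpr, scaled with TMM and tested in 1 fit over all 12 libraries with the quasi-likelihood test of edgeR 4.0.16 (R 4.3.3), with Benjamini-Hochberg adjustment over 65080 genes. The filter kept 99.8% to 99.9% of the counts. DESeq2 1.42.0, other scalings, filters and thresholds, a replicate block and leaving out each library were alternatives. TPM was computed from the counts and lengths, and shares and ratios were tested with exact permutation tests in SciPy 1.17.1.

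Same-numbered libraries of the cultivars at 5 DAF deviated together (correlations of 0.340, 0.324 and 0.510 between deviations from group means), so the numbers were taken to pair them there, from the values alone. The main fit still had no replicate block, so the 5 DAF values in the Results do not use this pairing. With a block in all libraries, or in the 5 DAF libraries only, no homeolog was a DEG at 5 DAF. In other pairs of groups the correlations ran from -0.279 to 0.0954.

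The members and lists were chosen with earlier results of these data known. Named are the homeologs, the 3 genes most correlated with each, the nearest neighbour on each side, network factors that were DEGs in any comparison, and, chosen after their values were seen, 1 further neighbour of GBSSI-4A. Lists of starch pathway and marker genes and sequences of the homeologs were not used here, since 0 of the TraesCS identifiers matched the reference table.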

Additional observations from a re-analysis of the deposited data

Results flagged for a closer look

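The stage change of all 3 homeologs differed between the cultivars at an adjusted p under 0.05 in the interaction test of edgeR, which missed the threshold of 0.01 used for DEGs. The stage change of TAM112 minus that of TAM111 was -2.99 for GBSSI-7A (adjusted p = 0.0320), -3.31 for GBSSI-4A (adjusted p = 0.0219) and -2.85 for GBSSI-7D (adjusted p = 0.0281) on the log2 scale. The estimated stage changes differed by homeolog, and the differences between homeologs in them were not tested. For GBSSI-4A the log2 fold change of 14 over 5 DAF was 0.10 in TAM112 and 3.40 in TAM111, whereas for GBSSI-7A it was -1.58 in TAM112 and 1.41 in TAM111, and for GBSSI-7D -1.30 in TAM112 and 1.55 in TAM111. These comparisons share libraries with the comparison of the cultivars at 14 DAF. Without replicate 3 of TAM112 at 14 DAF, the stage change of GBSSI-4A in TAM112 was -0.72.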

How the results depend on the processing

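At 14 DAF all 3 homeologs stayed lower in TAM112 and DEGs under the 9 other settings run (-2.74 to -2.09 on the log2 scale, replicate block included). Among these 9, the limit of an adjusted p under 0.05 used the same fit and could not lose a call. With 1 library left out the values ran from -3.39 to -2.23 (GBSSI-7A), -3.51 to -2.39 (GBSSI-4A) and -3.45 to -2.25 (GBSSI-7D), with the DEG call lost for GBSSI-7A in 3 and for GBSSI-4A in 1 of 12 fits. At 5 DAF no setting gave a call. The replicate block changed no call of a homeolog (14 DAF -2.65, -2.74 and -2.74 for GBSSI-7A, GBSSI-4A and GBSSI-7D). Between stages in TAM111, DESeq2 called GBSSI-7A (1.42) and GBSSI-7D (1.56), a fit of the compared groups alone called both (1.38 and 1.52), no low-count filter (1.54) or at least 10 counts per library (1.60) called GBSSI-7D, and an adjusted p under 0.05 called both (1.41 and 1.55). In TAM112, DESeq2 (-1.54 and -1.27) and an adjusted p under 0.05 (-1.58 and -1.30) called GBSSI-7A and GBSSI-7D. For the interaction, DESeq2 (-2.97, -3.28 and -2.83) and an adjusted p under 0.05 (-2.99, -3.31 and -2.85) called all 3. The cause of these shifts was not tested.

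With 1 library left out, the stage values in TAM111 ran from 1.16 to 1.60 (GBSSI-7A) and 1.32 to 1.69 (GBSSI-7D), those in TAM112 from -2.43 to -1.25 (GBSSI-7A), -0.72 to 0.42 (GBSSI-4A, where -0.18 was without replicate 3 of TAM112 at 5 DAF) and -2.19 to -0.97 (GBSSI-7D), and the interaction from -3.82 to -2.66, -4.10 to -2.98 and -3.72 to -2.52 (GBSSI-7A, GBSSI-4A and GBSSI-7D). The differences of share between cultivars, which no test called, ran from -1.05 to 2.92 points (GBSSI-7A), -3.60 to 2.74 (GBSSI-4A) and -3.52 to 0.677 (GBSSI-7D). In CPM without length the mean log2 ratio of GBSSI-4A to GBSSI-7A was 0.000299 in place of -0.20.

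Counts of called neighbours moved most. At 14 DAF they were 11 with library sizes alone, 4 with at least 10 counts per library and 12 at an adjusted p under 0.05, and 0 to 9 with 1 library left out. At 5 DAF they were 0 with at least 10 counts and 1 with the replicate block, and 0 to 2 with 1 library left out. Between stages they were 17 (library sizes alone) and 5 (at least 10 counts) in TAM111, and 6 (at least 10 counts), and 7 to 13 with 1 library left out, in TAM112. For the interaction they were 3 with DESeq2 and 2 at an adjusted p under 0.05, and 0 to 1 with 1 library left out. Called network factors between stages in TAM111 were 4 with DESeq2, 0 with at least 10 counts, which fewer genes pass, and 7 at an adjusted p under 0.05, and 1 to 5 with 1 library left out. Between cultivars at 14 DAF they were 2 at an adjusted p under 0.05, and 0 to 2 with 1 library left out. The alternatives planned for a starch pathway list were not run, since no list could be built.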
